A study of Mus musculus with 32 samples.

Results

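The 49 genes described here drive or mark mitosis: cyclins and kinases, the chromosomal passenger complex, kinetochore proteins, kinesins, spindle and cytokinesis factors, and proteins of the condensed chromosome. They are a fixed list of gene names, chosen with earlier results of these data known, and all 49 were among the 18588 genes with a signal. Counts of calls among them, set beside the shares of all genes, are therefore a description of the list and no test of it. RNA from microglia, the resident macrophages of the brain, was sequenced in female rTg4510 and WT mice at 2, 4, 6 and 8 months of age. rTg4510 mice carry human tau (P301L) under a tetracycline-responsive element together with a transactivator transgene driven by CaMKIIα, so that the mutant tau is made in forebrain neurons. WT animals were littermates without either transgene (strain 129/FVB F1 in the labels). Each library came from cells that CD11b MicroBeads pulled from the pooled forebrains of several mice, so the spread between libraries is the spread between pools. Of 32 libraries, 4 were excluded in the study's quality control, which left 4 rTg4510 and 4 WT libraries at 2 and at 6 months and 3 of each at 4 and at 8 months. In RNA from whole pools, a larger share of dividing cells and more of a transcript per dividing cell cannot be told apart.

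Mitosis divides a duplicated genome between daughter cells. Cdk1 with cyclins A and B starts it, condensin and topoisomerase II compact and untangle the chromosomes, kinetochores tie them to spindle microtubules, a checkpoint holds anaphase until every kinetochore is attached, and the anaphase-promoting complex then destroys the cyclins and frees the sister chromatids. Most of these transcripts are made only in late S, G2 and M phase, so their sum in a tissue is widely used as a measure of dividing cells. Microglia of the adult brain divide rarely and renew themselves locally, and they divide more often when activated around damaged neurons.

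Signals are the authors' log2 gene values, in which the median gene of every library is 5.63 and the lowest value ranges from 1.23 to 1.92. The mitosis genes were near the bottom of that range: within a library their median lay between the 7.0th and the 25.2nd percentile of all genes. Between 0 and 14 of the 49 genes per library had a value equal to 3 or fewer inferred counts, here called near the floor. Of the low values over all genes, 48.1% lay on whole inferred counts and 25.5% midway between them. An even spread would put 4% on each. The inferred counts are therefore approximate. Ttk in rTg4510 at 2 and 6 months, Bub1 in rTg4510 at 2 months and Bub1b in rTg4510 at 8 months were near the floor as whole groups, and the differences fitted against those groups depend on how low values were handled. In rTg4510 at 6 months, 2 of 4 libraries were near the floor for Aurka and for Ccnb1, Bub1, Cdc20, Cdca3, Kif4, Nusap1, Hmmr and Prc1. All of these but Aurka are reported below as lower at 6 months, and the same limit holds in part for them. Read depth per library is not part of the deposited values. The standard error of a genotype difference at 4 months had a median of 0.256 over the mitosis genes and 0.189 over all genes. Of 10 microglia markers, 9 had group means well above the median gene, up to 13.1 to 13.9 for Cx3cr1, and Aif1 lay at 5.94 to 6.41. Their median differences between rTg4510 and WT were -0.19, -0.32, -0.52 and -0.53 in order of age. In the same order 1, 2, 3 and 3 were called lower, beside 0.403%, 4.33%, 8.54% and 5.37% of all genes. The part of these markers in the differences of the mitosis genes was not tested.

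The mean signal of the 49 genes stood above WT in rTg4510 at 4 months and below WT at the other ages. From the youngest to the oldest age, rTg4510 averaged 3.84 ± 0.106 (SD, n = 4), 4.60 ± 0.0811 (n = 3), 3.77 ± 0.105 (n = 4) and 3.83 ± 0.0266 (n = 3). WT averaged 4.11 ± 0.110 (n = 4), 4.07 ± 0.272 (n = 3), 4.39 ± 0.105 (n = 4) and 4.34 ± 0.0693 (n = 3) in the same order. The 3 rTg4510 libraries at 4 months ranged from 4.55 to 4.70 and did not overlap the WT libraries of that age, which ranged from 3.79 to 4.34. At 6 months the order was turned, with rTg4510 between 3.68 and 3.89 and WT between 4.28 and 4.51, and at 8 months rTg4510 lay between 3.80 and 3.85 and WT between 4.29 and 4.42. At 2 months the ranges overlapped, 3.73 to 3.98 in rTg4510 and 3.97 to 4.23 in WT.

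**Figure D1:**
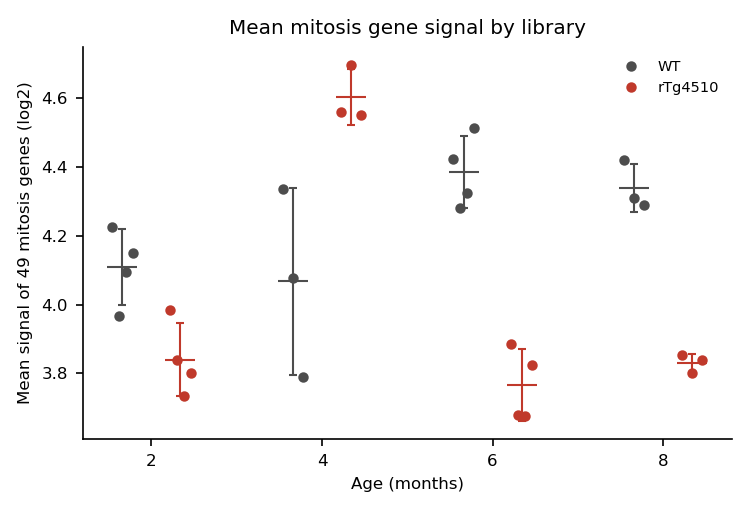
Mean log2 signal of the 49 mitosis genes in each of 28 libraries (points) by age in months, with the group mean (horizontal line) and SD (bar), WT in grey and rTg4510 in red. The rTg4510 libraries at 4 months lie between 4.55 and 4.70, above all others, and those at 6 months lie between 3.68 and 3.89, below every WT library of that age.

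A gene was called where limma's linear model over the 8 groups gave a Benjamini-Hochberg adjusted p under 0.05 over all 18588 genes and a change of more than 1.5 fold. At 2 months 0 of 49 mitosis genes were called higher in rTg4510 (1.58% of all genes) and 2 were called lower (0.403% of all genes). At an unadjusted p under 0.05 there were 12 (16.5% of all genes). At 4 months 14 were called higher, where 9.47% of all genes were, and 1 was called lower, where 4.33% of all genes were. At 6 months 0 were called higher (11.3% of all genes) and 26 lower (8.54% of all genes). At 8 months 0 were called higher (10.5% of all genes) and 12 lower (5.37% of all genes). At an unadjusted p under 0.05 there were 31 mitosis genes at 6 months (43.0% of all genes) and 24 at 8 months (35.4% of all genes). The median log2 difference over the 49 genes was -0.27, 0.58, -0.70 and -0.58 at 2, 4, 6 and 8 months, and over all genes it was 0.01, -0.04, -0.04 and -0.01.

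Both calls at 2 months, Ncapg2 and Esco2, were lost without rTg4510 replicate 2 and without rTg4510 replicate 3, where Ncaph was called instead. Esco2 was also lost without rTg4510 replicate 1, WT replicate 3 or WT replicate 4, and Ncapg2 with the replicate number as a block. Both calls were also lost with all 32 libraries and with the libraries of that age alone. The call at 4 months was sensitive to single libraries. Its counts take both directions together and include Ncaph, which was called lower in each of these fits. Without WT replicate 4, the WT library lowest in mitosis genes at that age, 6 genes were called at 4 months in place of 15, without rTg4510 replicate 2 there were 9, and 22 without WT replicate 1. The median difference was 0.48 without WT replicate 4 and 0.76 without WT replicate 1. A fit on the 6 libraries of that age alone called 3, with Birc5 and Cenpe higher and Ncaph lower. Mki67 and Top2a were not called in that fit. The share of all genes called was not counted in the fits without 1 library, on 1 age alone or after quantile normalization, so these counts have no background beside them. At 6 months, leaving out any 1 library gave between 18 and 26 calls, and at 8 months between 9 and 14. With the replicate number as a block, which pairs the libraries at these 2 ages, 24 genes were called at 6 months (without Bub1, Cdca3 and Kif4, with Anln added) and 10 at 8 months (without Knl1, Nuf2 and Kif11, with Birc5 added). Fits on the libraries of 1 age called 17 genes at 6 months and 4 at 8 months, and quantile normalization of the libraries gave 9 calls at 6 months in place of 26, with a median difference of -0.46. Only 8 of the 49 genes had a mean signal at or above the 25th percentile of all genes, and 3 of those 8 were called at each of 4, 6 and 8 months when the others were left out.

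The calls fell into few patterns across age. Of the 49 genes, 17 were called at no age, 11 were called lower at 6 months alone and 4 lower at 6 and 8 months. The 14 genes called higher at 4 months comprised 5 that were then called lower at 6 and 8 months, 3 that were called lower at 6 months, 1 that was called lower at 8 months and 5 that were not called again. Ncaph was called lower at 4, 6 and 8 months, Ncapg2 at 2, 6 and 8 months, and Esco2 at 2 and 6 months. In sign, 38 of 49 genes were positive at 4 months and negative at 6 and 8 months, and 36 were negative at 2 months and positive at 4 months. The share of all genes with these patterns of calls or signs was not counted.

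**Figure D2:**
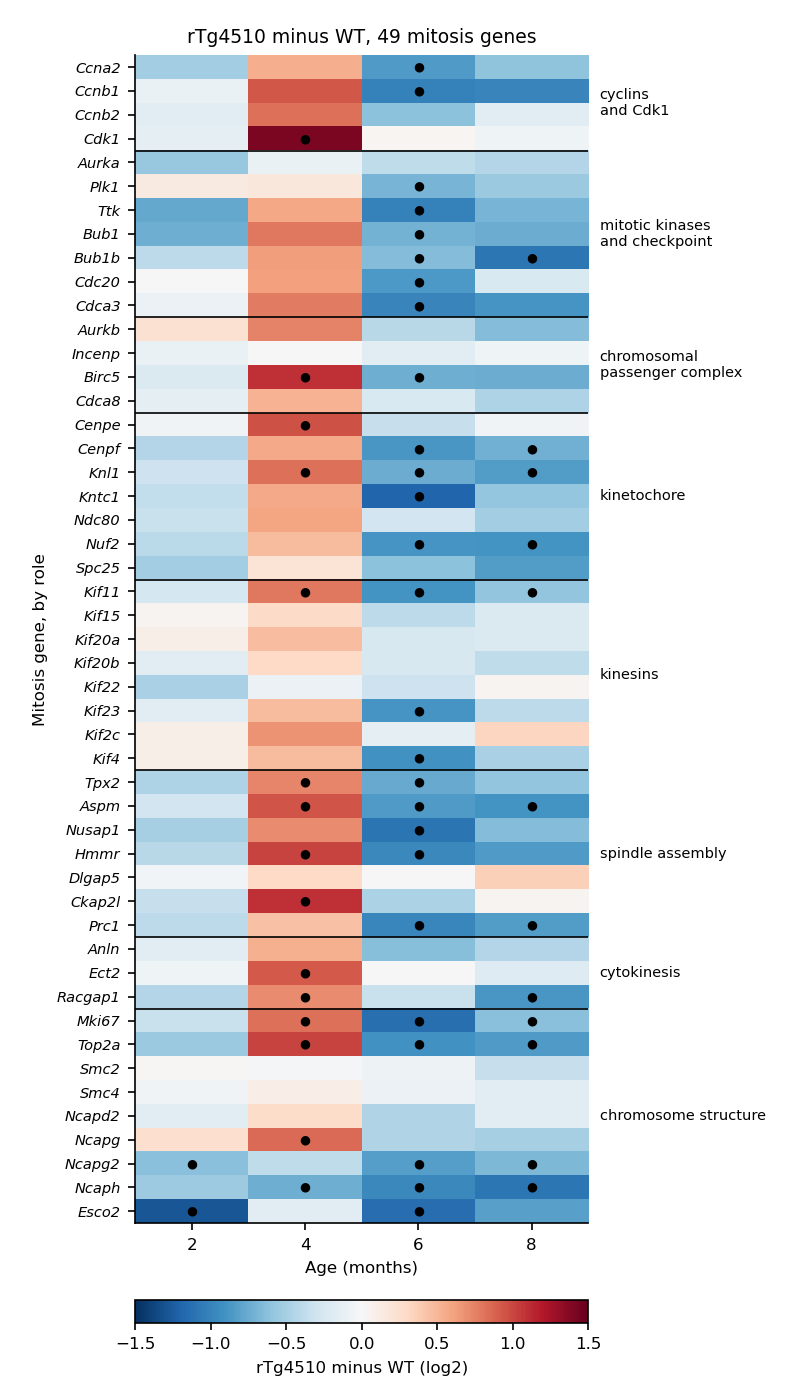
Log2 difference between rTg4510 and WT group means for the 49 mitosis genes (rows, grouped by role) at 2, 4, 6 and 8 months (columns), with red for higher and blue for lower in rTg4510 and a dot where the gene was called. The column at 4 months is mostly red, with 14 genes called higher and Ncaph called lower, and the column at 6 months is mostly blue, with 26 genes called lower.

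The promoters of the genes were read as a description of the list. The motif shares are read from sequence alone, for a list of gene names chosen with earlier results of these data known. The part of the motifs in the differences was not tested. RefSeq (GRCm38.p6) held a promoter for 41 of the 49 genes, from 250 bases before to 50 bases after the start of transcription, and the first entry was used for the 2 genes with more than 1. Esco2, Kif20a, Incenp, Smc4, Aurkb, Ccna2, Dlgap5 and Tpx2 were without an entry. Each was searched on both strands for TTTGAA, the core of the cell cycle genes homology region (CHR) that the DREAM and MuvB complexes bind, and for CCAAT, the box bound by NF-Y. A match to either is never a match to the other. TTTGAA was found in 34 of 41 promoters (82.9%, against 18.1% of 27025 promoters of all genes), CCAAT in 30 (73.2% against 37.9%), and both in 27 (65.9% against 7.12%). Matches to TTTGAA lay close to the start: 31 of 41 genes (75.6%) had one between 50 bases before and 50 after it, against 4.92% of all promoters, and 21 had one in the first 50 transcribed bases. Of the 68 CCAAT matches, 44 lay in the 100 bases before the start and 2 after it. The 130 bases before the start are shown for the 5 genes with the largest rise at 4 months, for Mki67, and for Ncaph, which was lower in rTg4510 at that age; capitals mark TTTGAA or CCAAT in either orientation.
Cdk1: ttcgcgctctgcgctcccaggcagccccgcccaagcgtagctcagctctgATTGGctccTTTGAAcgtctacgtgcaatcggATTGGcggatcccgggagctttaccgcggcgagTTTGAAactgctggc
Birc5: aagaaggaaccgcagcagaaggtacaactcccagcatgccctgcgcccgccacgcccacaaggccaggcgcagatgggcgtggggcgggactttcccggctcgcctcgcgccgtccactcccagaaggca
Ckap2l: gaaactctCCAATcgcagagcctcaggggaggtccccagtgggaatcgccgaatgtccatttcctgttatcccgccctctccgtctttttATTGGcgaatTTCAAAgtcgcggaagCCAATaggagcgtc
Hmmr: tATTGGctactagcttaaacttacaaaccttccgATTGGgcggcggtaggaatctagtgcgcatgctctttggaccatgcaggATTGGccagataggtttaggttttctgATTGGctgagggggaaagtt
Top2a: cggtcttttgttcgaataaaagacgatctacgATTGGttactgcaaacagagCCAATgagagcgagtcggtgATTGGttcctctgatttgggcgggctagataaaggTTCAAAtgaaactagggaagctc
Mki67: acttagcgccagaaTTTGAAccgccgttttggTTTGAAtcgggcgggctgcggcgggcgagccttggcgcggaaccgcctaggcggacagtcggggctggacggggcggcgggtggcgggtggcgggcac
Ncaph: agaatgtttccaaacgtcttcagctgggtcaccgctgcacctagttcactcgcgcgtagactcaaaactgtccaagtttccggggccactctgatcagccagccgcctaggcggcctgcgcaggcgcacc
The stretches lie at chr10:69352913-69353042 (minus strand), chr11:117849107-117849236 (plus strand), chr2:129297213-129297342 (minus strand), chr11:40733438-40733567 (minus strand), chr11:99024190-99024319 (minus strand), chr7:135716380-135716509 (minus strand) and chr2:127133955-127134084 (minus strand). Hmmr had its TTTGAA match after the start, at positions 9 to 14 of the transcript, and the Mki67 CCAAT matches lay before the stretch shown. Neither motif was found in the Birc5, Ncaph, Nuf2 and Nusap1 windows. At 4 months 9.47% of all genes were called higher and 4.33% lower. Among the 27 genes with both motifs 10 were called higher at 4 months, with a median log2 difference of 0.62. Of the 7 genes with TTTGAA alone 1 was called higher, with a median of 0.53. Of the 3 with CCAAT alone 1 was called higher, with a median of 0.94. Among the 4 genes without either motif 1 was called higher (Birc5) and 1 lower (Ncaph), with a median of 0.59. Most of these groups are small, and differences between them were not tested.

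Of all genes, 9.47% were called higher at 4 months, and 8.54% and 5.37% lower at 6 and 8 months. The counts by role that follow stand beside these shares. The roles hold few genes, and differences between roles were not tested. Among the cyclins and Cdk1, Cdk1 alone was called higher at 4 months. Cdk1, the kinase that starts mitosis, had signals of 5.44, 5.92 and 4.94 in rTg4510 and of 4.36, 4.41 and 3.28 in WT at 4 months. All 3 rTg4510 libraries were above all 3 WT libraries. The log2 difference was 1.42 (SE 0.353, adjusted p = 0.005). At 6 months the groups overlapped, with 4.62, 4.02, 3.97 and 4.52 in rTg4510 and 4.53, 4.47, 4.27 and 3.75 in WT, and the difference was 0.02 (95% interval -0.61 to 0.66). The cyclins Ccna2, Ccnb1 and Ccnb2, which activate Cdk1, had differences of 0.55, 0.94 and 0.82 at 4 months that missed the threshold (adjusted p = 0.103, 0.123 and 0.0727). At 6 months Ccna2 and Ccnb1 were called lower in rTg4510. Ccna2 was 4.04, 3.99, 3.65 and 4.00 in rTg4510 and 4.62, 4.82, 4.84 and 4.79 in WT, without overlap, a difference of -0.85 (SE 0.203, adjusted p = 0.00252). Ccnb1 differed by -1.01 (SE 0.366, adjusted p = 0.0375), with rTg4510 between 2.46 and 4.04 and WT between 3.57 and 4.53. The Ccnb1 call was lost in 8 of 33 alternative fits. Up to 19% of the Ccnb1 transcript sequence, as shared 50-base stretches, recurs in a single processed pseudogene, and Exosc9 covers 12.5% of the exonic bases of Ccna2 on the other strand, so reads of these genes may be mixed with those of others.

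Of the 7 mitotic kinases and checkpoint genes, 0 were called at 4 months (9.47% of all genes higher, 4.33% lower). At 6 months 6 were called lower (8.54% of all genes). Plk1, the Polo kinase that acts from mitotic entry to cytokinesis, was 4.20, 4.23, 3.76 and 4.08 in rTg4510 and 4.74, 4.81, 4.69 and 4.81 in WT at 6 months. The groups were well apart, and the difference was -0.70 (SE 0.165, adjusted p = 0.00223), while at 4 months it was 0.17 (95% interval -0.23 to 0.57). Cdc20, the activator of the anaphase-promoting complex, differed by -0.86 at 6 months (SE 0.258, adjusted p = 0.0135), with overlapping ranges of 2.42 to 3.61 and 3.44 to 3.94. Cdca3, a trigger of mitotic entry, differed by -0.99 (SE 0.366, adjusted p = 0.0411) with 1 WT library, at 3.01, inside the rTg4510 range. The Cdca3 call was lost in 10 of 33 alternative fits. The checkpoint kinases Bub1 and Ttk and the checkpoint protein Bub1b were also called lower at 6 months, at -0.70, -1.02 and -0.65. The Bub1 call was close to the threshold (adjusted p = 0.0488), with overlapping ranges of 2.69 to 3.11 in rTg4510 and 3.03 to 4.12 in WT. It was lost in 22 of 33 alternative fits. Ttk had the lowest mean signal of the 49 genes and was 3.23, 1.82, 2.75 and 2.22 in rTg4510 at 6 months, a group near the floor. At 8 months Bub1b was the member called, at -1.08 (SE 0.225, adjusted p = 0.0009), and there the rTg4510 libraries were near the floor. Aurka, the centrosome kinase, had differences of -0.57, -0.10, -0.38 and -0.44 over the 4 ages with none past the threshold.

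In the chromosomal passenger complex, which corrects wrong attachments of chromosomes to the spindle, Birc5 was the 1 gene of 4 that was called. Birc5 (survivin) was 5.03, 4.90 and 4.83 in rTg4510 and 3.62, 3.98 and 3.87 in WT at 4 months, with a wide gap between the groups. Its difference was 1.09 (SE 0.274, adjusted p = 0.00515). At 6 months it was 3.89, 3.86, 4.53 and 3.61 in rTg4510 and 4.69, 4.67, 4.85 and 4.62 in WT, again without overlap but in the other order, at -0.73 (SE 0.237, adjusted p = 0.0206). Aurkb, the kinase of the complex, was at 0.74 at 4 months and -0.42 at 6 months (adjusted p = 0.13 and 0.295). Incenp, its scaffold, was at 0.00 at 4 months with a 95% interval of -0.38 to 0.39.

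All 7 kinetochore genes were positive at 4 months, 2 of them called (9.47% of all genes higher). All 7 were negative at 6 and 8 months, with 4 and 3 called (8.54% and 5.37% of all genes lower). Cenpe, the kinesin that carries chromosomes to the metaphase plate, was 4.91, 4.89 and 4.74 in rTg4510 and 4.14, 3.69 and 3.87 in WT at 4 months. The rTg4510 libraries lay close together and above WT, at a difference of 0.95 (SE 0.166, adjusted p = 0.000175). By 8 months the Cenpe groups overlapped, at -0.05 (95% interval -0.40 to 0.29). Knl1, the scaffold on which checkpoint proteins gather, was called at 3 ages, at 0.82, -0.75 and -0.83 at 4, 6 and 8 months (adjusted p = 0.0396, 0.0222 and 0.0332). These Knl1 calls were lost in 7, 6 and 8 of 33 alternative fits, in the same order. Kntc1, a subunit of the complex that brings dynein to kinetochores, had the largest drop of the 49 genes at 6 months. It was 3.29, 2.59, 3.30 and 3.25 in rTg4510 and 4.40, 4.38, 3.84 and 4.56 in WT, without overlap, at -1.18 (SE 0.161, adjusted p = 5.3e-06). Cenpf, a large protein of the outer kinetochore, and Nuf2, part of the microtubule-binding Ndc80 complex, were called lower at 6 and 8 months, Cenpf at -0.87 and -0.72 and Nuf2 at -0.88 and -0.89. Spc25, of the same complex as Nuf2, differed by 0.21 at 4 months and by -0.61 at 6 months and was not called (adjusted p = 0.778 and 0.215).

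Among 8 kinesins, Kif11 was called at 3 ages and Kif23 and Kif4 at 6 months. Kif11, the motor that pushes spindle poles apart, was 4.54, 4.59 and 4.65 in rTg4510 and 4.19, 3.98 and 3.23 in WT at 4 months, a difference of 0.79 (SE 0.215, adjusted p = 0.00971). At 6 months its 4 rTg4510 libraries lay between 3.09 and 3.17, below all WT libraries (3.68 to 4.35), at -0.89 (SE 0.186, adjusted p = 0.000711). At 8 months it was -0.59, just past both thresholds (SE 0.215, adjusted p = 0.04996), and this call was lost in 25 of 33 alternative fits. Kif23, needed for the midzone of the dividing cell, was at -0.88 at 6 months (SE 0.199, adjusted p = 0.00146), and the chromokinesin Kif4 at -0.91 (SE 0.281, adjusted p = 0.0159). Kif20a had the highest mean signal of the 49 genes, and its difference at 4 months, 0.47 (SE 0.15, adjusted p = 0.0277), was under 1.5 fold. Cdc23 covers 29.3% of the exonic bases of Kif20a on the other strand, and Pdzd11 covers 15.1% of those of Kif4, so their signals may hold reads of those neighbours. Kif22 was at -0.09 and -0.31 at 4 and 6 months, and Kif2c at 0.67 and -0.14, none past the threshold.

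Of the 7 spindle assembly genes, 4 were called higher at 4 months (9.47% of all genes) and 5 were called lower at 6 months (8.54% of all genes). Ckap2l, a spindle protein, was 6.12, 6.86 and 6.45 in rTg4510 and 5.79, 5.42 and 4.95 in WT at 4 months, all rTg4510 libraries above WT, at 1.09 (SE 0.298, adjusted p = 0.00991). It was at -0.47 and 0.04 at 6 and 8 months and was not called there. Hmmr, which anchors microtubules at spindle poles, was 4.45, 4.50 and 4.42 against 3.77, 3.54 and 3.02 at 4 months, at 1.01 (SE 0.312, adjusted p = 0.0221), and at -0.96 at 6 months (SE 0.271, adjusted p = 0.00852). Aspm, a protein of spindle poles, was called at 3 ages, at 0.94, -0.85 and -0.90 at 4, 6 and 8 months (adjusted p = 0.0139, 0.00737 and 0.0176). Tpx2, the activator of Aurora A, was at 0.73 and -0.75 at 4 and 6 months (adjusted p = 0.0438 and 0.0118). Its call at 4 months was lost in 15 of 33 alternative fits. Nusap1 and Prc1, which bundle microtubules, were called lower at 6 months, at -1.09 and -0.98, and Prc1 was also called at 8 months, at -0.84 (SE 0.237, adjusted p = 0.0115). Dlgap5 was at 0.29 at 4 months and -0.01 at 6 months (95% interval -0.45 to 0.44).

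Of the 3 cytokinesis genes, Ect2 and Racgap1, which together switch on RhoA at the cleavage site, were called higher at 4 months. Ect2 was 4.21, 4.33 and 4.55 in rTg4510 and 3.76, 3.83 and 2.74 in WT, at 0.92 (SE 0.234, adjusted p = 0.00592), and the groups overlapped at 6 months (0.00, 95% interval -0.42 to 0.43). Racgap1 was at 0.71 at 4 months (SE 0.213, adjusted p = 0.0184) and was called lower at 8 months, where rTg4510 was 3.21, 2.52 and 3.26 and WT was 4.08, 3.80 and 3.72, at -0.87 (SE 0.213, adjusted p = 0.00395). Anln, the actin-binding protein of the contractile ring, was at 0.53 at 4 months and -0.64 at 6 months, neither past the threshold (adjusted p = 0.214 and 0.0576).

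Mki67 and Top2a, the most used markers of dividing cells, were called at 4, 6 and 8 months and turned direction between 4 and 6 months. In fits on the libraries of a single age, neither was called at 4 months and Mki67 was not called at 8 months. Mki67, which coats mitotic chromosomes, was 5.79, 5.51 and 5.64 in rTg4510 and 5.01, 4.96 and 4.48 in WT at 4 months, at 0.83 (SE 0.159, adjusted p = 0.00046). At 6 months it was 4.30, 4.16, 4.23 and 4.18 in rTg4510 and 5.19, 5.34, 5.40 and 5.44 in WT, at -1.13 (SE 0.138, adjusted p = 1.24e-06). The spread within a group of Mki67 at 6 months was a small part of the gap between the groups. At 8 months Mki67 stood at 4.49, 4.50 and 4.60 against 5.08, 5.50 and 4.87, still without overlap, at -0.62 (SE 0.159, adjusted p = 0.00534). Top2a, the topoisomerase that untangles sister chromatids, was 5.17, 5.37 and 5.08 against 4.57, 4.27 and 3.75 at 4 months, at 1.01 (SE 0.202, adjusted p = 0.000718). It was 4.04, 3.56, 3.49 and 3.82 against 4.53, 4.25, 4.90 and 4.85 at 6 months, at -0.90 (SE 0.175, adjusted p = 0.000352). At 8 months it was at -0.85 (SE 0.202, adjusted p = 0.00303). Of the 49 genes Top2a followed the mean of the others most closely over the 28 libraries (r = 0.955, a description, since the libraries share the groups), where the median gene had r = 0.676 and Kif2c the lowest, 0.179.

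**Figure D3:**
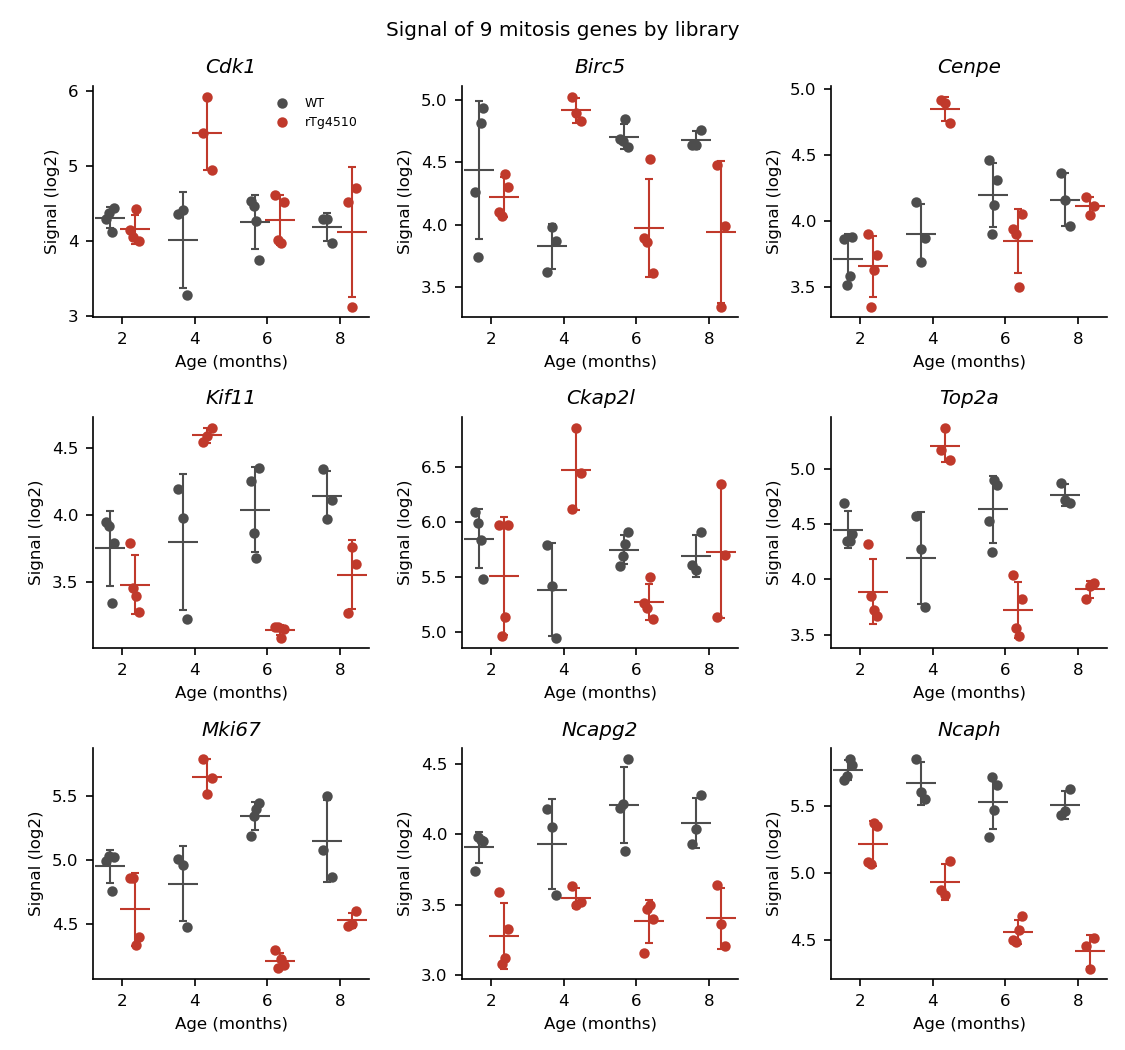
Log2 signal of 9 mitosis genes in each library (points) by age in months, with group mean (horizontal line) and SD (bar), WT in grey and rTg4510 in red. In Mki67 and Top2a the rTg4510 libraries lie above WT at 4 months and below WT at 6 and 8 months, while Ncaph lies below WT at every age.

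Condensin, which compacts chromosomes, did not move as 1 unit. Ncaph, the subunit that closes the ring of condensin I, was lower in rTg4510 at every age, without overlap. It was 5.08, 5.07, 5.37 and 5.35 in rTg4510 and 5.69, 5.72, 5.85 and 5.80 in WT at 2 months, at -0.55 (SE 0.0967, adjusted p = 0.00097), past the adjusted p but under 1.5 fold. The difference was -0.73 at 4 months (SE 0.112, adjusted p = 3.71e-05), -0.96 at 6 months (SE 0.0967, adjusted p = 7.25e-08) and -1.08 at 8 months (SE 0.112, adjusted p = 1.81e-07). Its change from 2 to 4 months was -0.18 (95% interval -0.49 to 0.12) and from 4 to 6 months -0.23 (95% interval -0.54 to 0.08). Ncapg2, of condensin II, was called lower at 2 months, when it was 3.59, 3.08, 3.12 and 3.33 in rTg4510 and 3.74, 3.98, 3.96 and 3.95 in WT, at -0.63 (SE 0.148, adjusted p = 0.0106), and again at 6 and 8 months, at -0.82 and -0.68. Ncapg, of condensin I like Ncaph, was called higher at 4 months, at 0.85 (SE 0.277, adjusted p = 0.0303), where 13.4% of its exonic bases are shared with Lcorl on the other strand. Smc2 and Smc4, the ATPases common to both condensins, were at -0.03 and 0.10 at 4 months, with 95% intervals of -0.26 to 0.19 and -0.10 to 0.30. Ncapd2 was at 0.28 at 4 months and -0.45 at 6 months, the latter with an adjusted p of 0.028 and under 1.5 fold. Esco2, which acetylates cohesin in S phase, was the other gene called at 2 months, with 3.35, 2.80, 2.78 and 3.76 in rTg4510 against 4.29, 4.09, 4.27 and 5.17 in WT, at -1.28 (SE 0.354, adjusted p = 0.0324). It was called lower again at 6 months, at -1.15 (SE 0.354, adjusted p = 0.0156).

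The change of the genotype difference with age was tested as an interaction. From 2 to 4 months the difference became more positive in 47 of 49 genes, and 16 were called (3.77% of all genes). The changes of Top2a and Cdk1 were both 1.57 (SE 0.268 and 0.467, adjusted p = 0.000853 and 0.045), and that of Mki67 was 1.17 (SE 0.21, adjusted p = 0.0014). From 4 to 6 months the difference became more negative in 49 of 49 genes, and 8 were called, where 0.118% of all genes (22 genes) were. These 8 were Mki67, Top2a, Birc5, Aspm, Kntc1, Kif11, Cenpf and Cenpe. The change was -1.96 for Mki67 (SE 0.21, adjusted p = 0.000191), -1.91 for Top2a (SE 0.268, adjusted p = 0.00325) and -1.83 for Birc5 (SE 0.362, adjusted p = 0.0457). Hmmr and Ccnb1 had changes of -1.98 and -1.95 that missed the threshold (adjusted p = 0.0555 and 0.248). From 6 to 8 months 0 genes were called (0% of all genes), with 2 mitosis genes at an unadjusted p under 0.05 (4.52% of all genes). Both called steps rest on the same libraries of 4 months, and without WT replicate 4 of that age 3 genes were called from 2 to 4 months and 3 from 4 to 6 months. The first count was also 5 without rTg4510 replicate 2 of 4 months and 6 without WT replicate 1 of 2 months, and the second was 3 without rTg4510 replicate 1 or 2 of 4 months or WT replicate 4 of 6 months. With the replicate number as a block the counts were 8 and 3, the latter being Cenpe, Mki67 and Top2a.

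**Figure D4:**
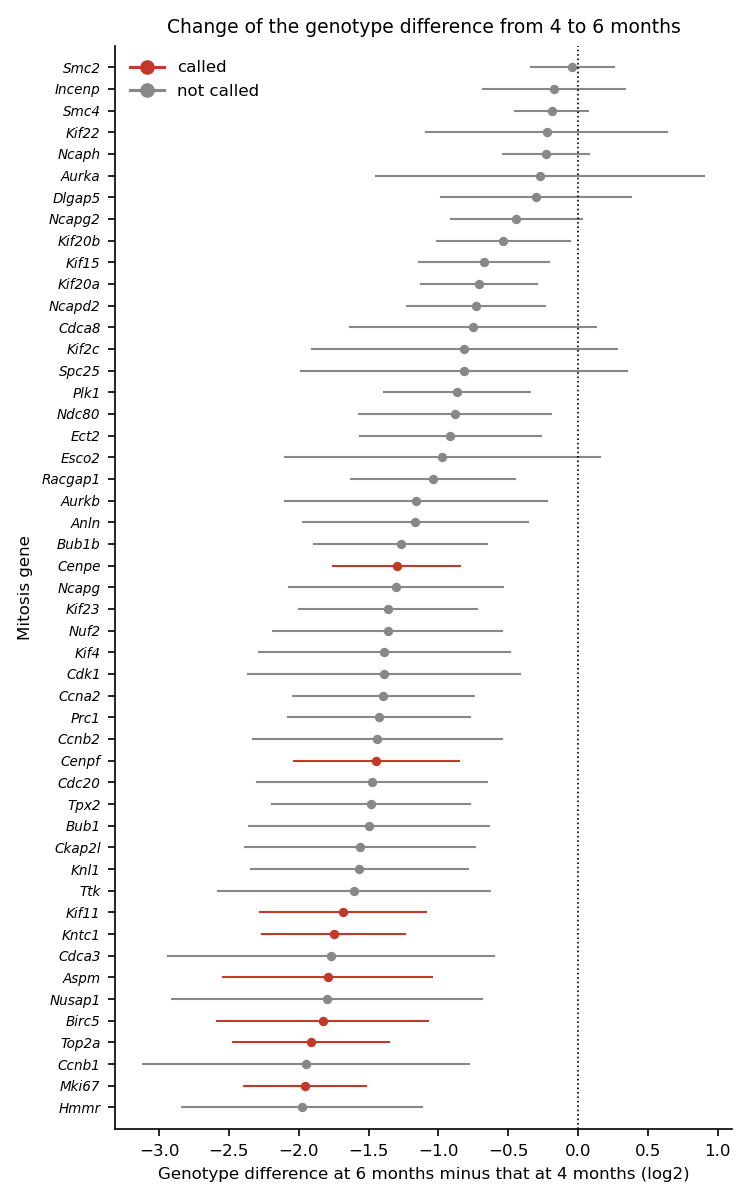
Genotype difference at 6 months minus that at 4 months (log2, points) with 95% intervals (lines) for the 49 mitosis genes, with the 8 called genes in red. All 49 points are below 0, from -0.04 (Smc2) to -1.98 (Hmmr).

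Within rTg4510, 25 of 49 genes rose from 2 to 4 months (4.03% of all genes were called higher) and 18 fell from 4 to 6 months (0.506% of all genes were called lower). Mki67 rose by 1.03 (SE 0.149, adjusted p = 5.39e-05) and then fell by 1.43 (SE 0.149, adjusted p = 5.53e-05), and Cenpe rose by 1.20 (SE 0.155, adjusted p = 1.61e-05) and then fell by 1.0 (SE 0.155, adjusted p = 0.00174). From 6 to 8 months 0 were called (0.00538% of all genes), with 8 at an unadjusted p under 0.05 (14.4% of all genes). Without rTg4510 replicate 2 of 4 months, 8 genes fell from 4 to 6 months in place of 18. In WT 0 of the 49 were called from 2 to 4 months (0.0484% of all genes), 0 from 4 to 6 months (0.00538% of all genes) and 0 from 6 to 8 months (0% of all genes). At an unadjusted p under 0.05 there were 3, 10 and 1, beside 10.2%, 8.65% and 9.78% of all genes. The WT median change from 4 to 6 months was 0.36, with 40 of 49 genes positive, beside a median of -0.88 in rTg4510.

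Other genes of the cell cycle were read from further lists. Of 64 measured mitotic genes outside the 49, 7 were called higher at 4 months, 10.9% beside 9.47% of all genes and so near that background, and 0 lower. Their median difference was 0.41, with 50 positive. At 6 months 11 were called lower (17.2% beside 8.54%) and 2 higher (3.1% beside 11.3%), with a median of -0.28. At 4 months those called included Gas2l3, a binder of actin and microtubules, at 2.08, the centrosome kinase Nek2 at 1.86 and Cdca5 (sororin) at 1.45. DNA replication genes were called higher at 4 months in 11 of 45 (24.4% beside 9.47%), led by Uhrf1 at 1.35, the helicase subunit Mcm6 at 1.28 and the chromatin assembly factor Chaf1a at 1.13. At 6 months 2 were called higher (11.3% of all genes) and 1 lower (8.54% of all genes), with a median of -0.01. Whether this differs from the mitosis genes was not tested. Of 20 regulators of the E2F, DREAM and FoxM1 group, E2f1 was called higher at 4 months (1.32) and Lin52 and E2f3 lower (-1.03 and -0.60). Of 16 subunits and activators of the anaphase-promoting complex, Anapc15 (1.23) and Anapc13 (0.59) were called higher at 4 months. These counts are 5% higher and 10% lower for the first list and 12.5% higher and 0% lower for the second, beside 9.47% and 4.33% of all genes, from which nothing is read. At 4 months cohesin had 0 of 10 called, and of 14 G1 cyclins, kinases and inhibitors Ccnd1 was called, at -1.07. Beside 9.47% higher and 4.33% lower of all genes, nothing is read from these 2 counts either. The 10 other genes whose signals followed the mean of the 49 most closely over 28 libraries were Ankle1, Stil, Ube2c, Kif14, Cit, Ckap2, Cep55, Pimreg, Brca1 and Rbl1, with r from 0.823 to 0.692.

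Markers of other cell types moved with genotype as well. The 10 neutrophil markers, among them genes of dividing precursors in bone marrow such as Mpo and Elane, had median differences of 0.10, -1.02, -1.95 and -1.48 at 2, 4, 6 and 8 months, with 0, 0, 9 and 7 called lower. Of all genes, 0.403%, 4.33%, 8.54% and 5.37% were called lower at these ages. Their summed signal on the log2 scale was 8.31 to 9.08 in rTg4510 and 9.21 to 10.1 in WT at 4 months, and 7.53 to 8.24 in rTg4510 and 9.12 to 10.4 in WT at 6 months. At 4 months all 10 differences were negative and 0 passed the threshold. The part of these markers in the differences of the mitosis genes was not tested. S100a8 averaged 5.68 in rTg4510 and 7.84 in WT at 6 months. The 4 measured markers of neural progenitors and neuroblasts had a median difference of 0.22 at 4 months, 2 positive and 2 negative: Dcx averaged 2.78 in rTg4510 and 3.04 in WT, Sox11 3.46 and 2.77, Sox2 2.50 and 2.87, and Nes 5.84 and 3.49. The 6 markers of oligodendrocyte precursors had a median of -1.09 at 4 months, 1 of them positive (Cspg4). Nes and Cspg4 were called higher in rTg4510 at 4 months, at 2.35 and 2.98, and also at 6 months, at 2.17 and 2.98. The part of these markers was not tested.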

How the data were processed

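Microglial RNA was amplified with an unstranded kit (Ovation RNA-Seq V2), and 32 libraries were deposited in 1 table. Its values are log2 gene signals: the authors summed reads per exon, dropped exons with few counts, combined exons with a robust linear model, took log2 and median normalized. The build is GRCm38 per the submitters' processing notes. The aligner and the annotation are not given in the sources used here, nor is strand use in counting. Entrez numbers were matched to symbols (17828 of 18588). The 4 libraries that failed the study's quality control were left out, and 0 value columns were unused for want of a label.

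A linear model with 8 group means was fitted by limma 3.58.1 in R 4.3.3 without moderation (20 residual degrees of freedom), and p-values were adjusted by the Benjamini-Hochberg method over all genes within a comparison. Called means an adjusted p under 0.05 and a change over 1.5 fold. The code was tested on simulated data. Replicates are separate pools. Same-numbered rTg4510 and WT libraries deviated together at 6 months (r from 0.131 to 0.153) and 8 months (0.150 to 0.291), but not throughout at 2 months (0.0649 to 0.167) or 4 months (-0.0999 to 0.124), so the numbers were taken to pair at 6 and 8 months.

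The members and lists were chosen with earlier results of these data known. Values are given in most detail for Mki67 and Top2a, the largest called and the smallest difference of each role at 4 months, genes called at 2 months or called lower at any age, the 5 largest called differences at 6 and at 8 months, the 5 largest drops of the difference from 4 to 6 months, the highest and lowest signals, the 3 largest called changes of each further list and the 10 genes most like the members. Others were named after their values were seen. Near the floor means up to 3 counts, inferred as 1.5 times the ratio to the lowest signal of the library, minus 1.5. Motifs and shared exonic bases were read with Python from RefSeq (GRCm38.p6) and GENCODE M21. Alternatives were a replicate block, moderated variance, all 32 libraries, only the groups compared, a filter at the 25th percentile of mean signal, quantile normalization, leaving out each library and, chosen after seeing the data, no fold threshold and leaving out members near the floor.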

Additional observations from a re-analysis of the deposited data

Results flagged for a closer look

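Within the groups of 4 libraries, 156 sets of values were examined for a library far from the other 3, and 10 stood out, where chance gives about 1 in 20. In rTg4510 these were Cdc20 in replicate 1 at 2 months (2.83, others 3.35 to 3.44), Knl1 in replicate 3 at 2 months (4.34, others 3.59 to 3.71), Ccna2 in replicate 3 at 6 months (3.65, others 3.99 to 4.04) and Kntc1 in replicate 2 at 6 months (2.59, others 3.25 to 3.30). In WT at 2 months these were Ccnb1 in replicate 4 (3.76, others 3.20 to 3.25), Anln in replicate 1 (4.16, others 3.83 to 3.88), Mki67 in replicate 3 (4.76, others 4.99 to 5.03), Top2a in replicate 1 (4.69, others 4.35 to 4.41) and Ncapg2 in replicate 1 (3.74, others 3.95 to 3.98), and in WT at 6 months Kif23 in replicate 2 (3.44, others 4.12 to 4.24).

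The genotype difference changed from 2 to 4 months, by the interaction test, in 16 mitosis genes. The log2 changes were 1.06 for Ccna2, 1.57 for Cdk1, 1.52 for Bub1, 1.02 for Bub1b, 1.31 for Birc5, 1.0 for Cenpe, 1.02 for Cenpf, 0.93 for Kntc1, 1.06 for Kif11, 1.20 for Tpx2, 1.23 for Aspm, 1.43 for Hmmr, 1.43 for Ckap2l, 1.15 for Racgap1, 1.17 for Mki67 and 1.57 for Top2a. From 4 to 6 months it changed in 8 genes, by -1.83 for Birc5, -1.30 for Cenpe, -1.44 for Cenpf, -1.75 for Kntc1, -1.68 for Kif11, -1.79 for Aspm, -1.96 for Mki67 and -1.91 for Top2a. The rTg4510 group of Bub1 at 2 months was near the floor.

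The excluded rTg4510 library of 4 months (replicate 3) had an Mki67 signal of 5.95, above the WT range of 4.48 to 5.01 at that age, and a Top2a signal of 5.04, above the WT range of 3.75 to 4.57. Its mean over the 49 genes was 4.17. That lay inside the range of the kept WT libraries of that age, 3.79 to 4.34, and below that of the kept rTg4510 libraries, 4.55 to 4.70.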

How the results depend on the processing

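In the fits that made calls, the balance of higher and lower calls kept its direction, as did the median difference of the 49 genes, and no named gene that was called reversed. At 2, 4, 6 and 8 months the counts of called mitosis genes were 2, 15, 26 and 12. Genotype calls at 2 months became 1 with the replicate block and 0 with all 32 libraries, with only the groups compared, or with low-signal genes left out. With only the groups compared, the counts at 4, 6 and 8 months were 3, 17 and 4, the interaction calls were 6 from 2 to 4 months (in place of 16) and 2 from 4 to 6 months (in place of 8), and within rTg4510 there were 12 (in place of 25) and 1 (in place of 18); fewer libraries estimate the variance there. With low-signal genes left out 8 of the 49 were tested: 3 were called at 4, 6 and 8 months each, 3 and 1 by interaction, 3 and 3 within rTg4510, and the medians were 0.28, -0.36 and -0.29. Quantile normalization gave 9 calls and a median of -0.46 at 6 months, 4 by interaction from 4 to 6 months and 10 within rTg4510 from 4 to 6 months; the cause was not tested. All 32 libraries gave interaction counts of 9 and 5, and the replicate block gave 8 and 3, where the numbers did not pair the libraries of 2 and 4 months. Leaving out each library gave 0 to 3, 6 to 22, 18 to 26 and 9 to 14 calls in order of age, 3 to 19 and 3 to 11 by interaction, 17 to 26 and 8 to 20 within rTg4510, and medians of -0.32 to -0.21, 0.48 to 0.76, -0.71 to -0.62 and -0.59 to -0.49; the comparisons with 0 calls had 0 in every fit run, moderated variance included. At 2 months, Ncapg2 and Esco2 were both lost without rTg4510 replicate 2 or 3, and Esco2 also without rTg4510 replicate 1 or WT replicate 3 or 4; other genes came in, so that the count was 0 without rTg4510 replicate 2 and 1 without rTg4510 replicate 3 or WT replicate 4. The interaction count from 2 to 4 months was 5 without rTg4510 replicate 2 of 4 months, 6 without WT replicate 1 of 2 months and 9 to 10 without rTg4510 replicates 2 or 4 of 2 months, rTg4510 replicate 4 of 4 months or WT replicate 4 of 2 months; that from 4 to 6 months was 3 to 5 without rTg4510 replicates 1 or 2 of 2, 4 or 6 months, WT replicates 2 or 4 of 4 months or WT replicates 1, 3 or 4 of 6 months. Apart from the replicate block, the share of all genes called was not counted in the alternative fits, so their counts have no background beside them. The depth of the libraries is unknown, and the low signals of most mitosis genes limit what can be seen in a single gene.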
